A study of Canis lupus familiaris with 45 samples.

Results

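Left ventricular gene expression after 2 weeks of rapid pacing was compared with that of unpaced hearts. The Week-2 group held 3 dogs and 9 arrays and the Day-0 group 3 dogs and 9 arrays, so that 18 of the 45 arrays and 6 of the 15 dogs of the study entered the comparison. Members were taken by the group named in the sample titles, and the 3 arrays of a dog, each from its own RNA isolation of the same tissue, were averaged on the log2 scale. All dogs were male and of matched age. In the Week-2 dogs a pacemaker lead fixed to the right ventricular epicardium drove the heart at 240 pulses per minute for 2 weeks, and the Day-0 dogs were not paced. The labels do not say whether Day-0 dogs had the thoracotomy and pacemaker implantation that paced dogs had, so pacing and surgery cannot be told apart. The other groups, of 3 dogs each, had shorter or longer pacing, of 3 days in Day-3 dogs, 1 week in Week-1 dogs and 3 to 4 weeks in End-stage dogs. Tissue was a transmural section, so every cell type of the ventricular wall contributed RNA, and in such bulk tissue fewer cells of a type and less RNA per cell cannot be told apart.

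Rapid pacing keeps the ventricle at a heart rate that it cannot sustain; over weeks the chamber dilates and contracts less, and the model is used to study the progression of heart failure. The healthy left ventricle draws its ATP mainly from fatty acid oxidation and mitochondrial respiration, and contraction is driven by calcium released from the sarcoplasmic reticulum through the ryanodine receptor. In failing hearts, fibroblasts lay down matrix, mechanical load and neurohormones switch on rapidly responding transcription factors, and the energy supply is remodelled. The groups of genes described here follow these roles.

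The signal is the MAS5 intensity of a probe set, a relative measure of one transcript that is comparable between dogs but not between probe sets. Of 14302 probe sets tested, 7674 carried 1 gene symbol, and for gene groups each of 5278 genes was represented by its brightest probe set. Repeat isolations from 1 dog, as single arrays, scattered with a median log2 SD of 0.293. Dogs of one group, each a mean of 3 arrays, scattered with 0.197 (Day-0) and 0.232 (Week-2), so these SDs are not directly comparable with the first. A difference between the groups had a median SE of 0.219. Of the markers of the labelled tissue, 11 of 15 cardiomyocyte markers were measured, with a summed signal of 83222 to 121800 at Day-0 and 78621 to 114580 at Week-2, while 5 of 7 skeletal muscle markers on the array lay below the signal filter. RNA integrity, read from the ratio of 3-prime to 5-prime GAPDH probe sets, gave mean ratios of 0.965 at Day-0 and 0.933 at Week-2 (exact two-sided permutation p = 0.3, where 3 dogs against 3 can reach 0.1). The same ratio for actin differed in the other direction, with means of 0.161 at Day-0 and 0.21 at Week-2 (exact two-sided permutation p = 0.4). The median signal per dog was 36.9, 41.7 and 37.3 at Day-0 and 43.2, 41.4 and 39.1 at Week-2, with overlap (exact two-sided permutation p = 0.3). Of 9 Week-2 arrays 5 had a median of at least 43, with a range of 33.3 to 47.3, against 0 of 9 Day-0 arrays, which ranged from 34.1 to 42.8. Several results are given for the arrays under 43 as well. That subset holds 1 array each of Week-2 dogs 1 and 2 and 2 of dog 3, and the single arrays of dogs 1 and 2 were the 2 of 18 arrays whose closest array came from another dog.

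After 2 weeks, 12 of 14302 probe sets passed an adjusted p of 0.05 in limma (0.0839%), 6 of them higher (0.042%) and 6 lower (0.042%) than at Day-0. Named genes that rose were the matricellular protein gene THBS1, the endoplasmic reticulum chaperone gene CLGN, the monocyte chemokine gene CCL2 and the organic cation transporter gene SLC22A3. Those that fell were TIMM8A, which encodes a chaperone of mitochondrial import, and PPM1J, which encodes a protein phosphatase. An unadjusted p under 0.05 was reached by 1597 probe sets, and at 17.3% of the probe sets no Week-2 dog fell within the Day-0 range. The count rests on the Week-2 dogs in particular: leaving out Week-2 dog 1 left 2 calls, leaving out dog 2 left 0 and leaving out dog 3 gave 20, and leaving out any 1 Day-0 dog gave 4 to 6. Each of the 6 named genes kept its direction in all 25 alternative settings. That was given in advance where dogs were left out, since the groups did not overlap, or where only the filter or variance model changed.

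THBS1 encodes thrombospondin 1, a secreted glycoprotein that binds matrix and activates latent TGF-beta, and lies on chromosome 30 at 7055241 to 7071904 of the dog assembly UU_Cfam_GSD_1.0. Its signal was 281, 443 and 325 in the Day-0 dogs and 1232, 1122 and 1181 in the Week-2 dogs. The Week-2 dogs lay close together and far above the Day-0 dogs, and so did single arrays, with 254 to 457 over the 9 Day-0 arrays and 994 to 1271 over the 9 Week-2 arrays. The difference was 3.43-fold (log2 1.78, SE 0.23, limma adjusted p = 0.0101). It passed the threshold in 23 of 25 settings, with adjusted p from 1.42e-07 to 0.0879, and did not pass without Week-2 dog 1 or without dog 2.

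CLGN encodes calmegin, a calcium-binding lectin chaperone of the endoplasmic reticulum best known from the testis, and lies on chromosome 19 at 3133450 to 3164709. Its signal was 48.5, 37.6 and 55.0 at Day-0 and 162, 243 and 204 at Week-2. No Week-2 array, the lowest at 129, reached down to the highest Day-0 array at 77.1. The gene rose 4.31-fold (log2 2.11, SE 0.27, limma adjusted p = 0.0101), and it passed in 24 of 25 settings, the exception being the fit without Week-2 dog 2 (adjusted p from 9.95e-07 to 0.0879 over the settings).

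CCL2, on chromosome 9 at 38976777 to 38978526, encodes the chemokine that draws monocytes out of the blood into tissue. Signals of 76.7, 62.8 and 56.4 at Day-0 stood against 194, 192 and 206 at Week-2, a spread between Week-2 dogs much narrower than the gap between the groups. The gene rose 3.04-fold (log2 1.60, SE 0.23, limma adjusted p = 0.0177) and passed in 16 of 25 settings (adjusted p from 0.000428 to 0.113). With only the arrays under a median of 43 it stood at log2 1.54 with an adjusted p of 0.0802. Macrophage markers did not move as clearly. Their summed signal, which the brightest markers dominate, was 798 to 1057 at Day-0 and 916 to 1082 at Week-2. Of 9 measured markers 0 passed and 0 were without overlap, 6 had an estimate above 0 and 3 below. Their median was 0.17 and stayed above 0 in 25 of 25 settings. FCER1G and AIF1 lay below the signal filter, and the part of macrophages in the CCL2 result was not tested.

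SLC22A3 encodes an extraneuronal transporter that clears catecholamines and other organic cations from the tissue, and lies on chromosome 1 at 49962647 to 50051070. The Day-0 dogs had signals of 1099, 1054 and 1369, and the Week-2 dogs 2412, 2113 and 1941, with no overlap. The rise was 1.84-fold (log2 0.88, SE 0.13, limma adjusted p = 0.0228), and the gene's other probe set stood at log2 0.64 (SE 0.21) with dogs that did not overlap either. It passed in 16 of 25 settings, with adjusted p from 1.19e-07 to 0.138, and in the arrays under 43 it stood at log2 0.86 with adjusted p = 0.0513.

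The protein of TIMM8A, a gene at 75674818 to 75677669 of chromosome X, escorts hydrophobic proteins across the space between the mitochondrial membranes. Its signal was 747, 832 and 755 at Day-0 and 471, 468 and 417 at Week-2. All 9 Week-2 arrays lay below all 9 Day-0 arrays. The gene fell 1.72-fold (log2 -0.78, SE 0.13, limma adjusted p = 0.041), and its other probe set lay lower by a similar amount (log2 -0.75, SE 0.19, limma adjusted p = 0.115). TIMM8A passed in 10 of 25 settings, with adjusted p between 1.53e-06 and 0.189, and did not pass when any 1 of the 6 dogs was left out.

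PPM1J, a gene for a serine and threonine phosphatase of the PP2C family on chromosome 17 at 63584435 to 63589674, had signals of 219.5, 229.9 and 169 at Day-0 and 104, 104 and 135 at Week-2. Dogs did not overlap, while 7 of 9 Week-2 arrays lay below all Day-0 arrays. The gene fell 1.80-fold (log2 -0.85, SE 0.15, limma adjusted p = 0.049). Its other probe set stood at log2 -0.05 (SE 0.23), so that the probe sets of this gene disagreed. PPM1J passed in 11 of 25 settings (adjusted p from 0.000329 to 0.221). Among 20 protein phosphatase genes measured it was the 1 that passed, and the median of that group was 0.01.

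The other 6 probe sets past the threshold have no symbol in the annotation of the array. Of these, 1590146_at rose from 181, 123 and 193 to 522, 601 and 543, and 1605821_at from 156, 166 and 194 to 434, 504 and 317. Falls were seen for 1587628_at, from 553, 692 and 715 to 210, 228 and 248, and for 1593822_at, from 663, 771 and 865 to 277, 308 and 394. The remaining falls were 1584530_at, from 332, 378 and 407 to 131, 173 and 213, and 1595083_at, from 3097, 2862 and 2775 to 1468, 1633 and 1835. All 9 Week-2 arrays lay outside the range of all 9 Day-0 arrays for each of these 6 probe sets.

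**Figure D1:**
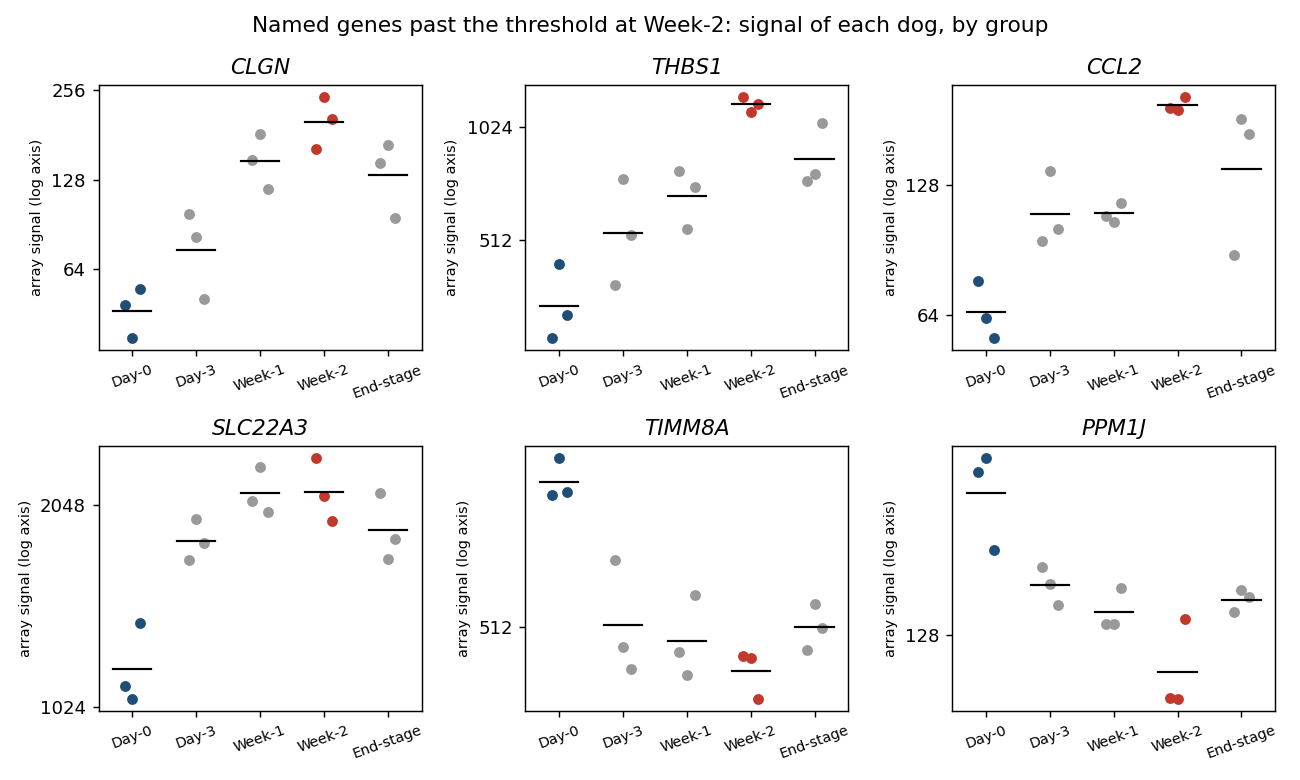
Array signal (log axis) of each dog in the 5 groups for the 6 named genes past the threshold at Week-2; points are dogs (means of 3 arrays on the log2 scale), blue for Day-0, red for Week-2 and grey for the other groups, and black lines are geometric means of 3 dogs. THBS1 was highest in the Week-2 dogs, at 1122 to 1232, while SLC22A3 lay as high in the Week-1 dogs, at 2004 to 2338, as in the Week-2 dogs, at 1941 to 2412.

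The plot of the 6 genes by group sets the Week-2 values beside the other stages, and direct contrasts between paced groups tested where Week-2 differed. Their differences do not use the Day-0 dogs, while their SEs come from the spread within all 5 groups. No probe set passed against Day-3, Week-1 or End-stage (0 of 14302, or 0%, in each). In limma 753, 826 and 600 probe sets had an unadjusted p under 0.05 in these contrasts, and the smallest adjusted p values were 0.158, 0.692 and 0.999. THBS1 had signals of 389, 745 and 527 at Day-3, 781, 547 and 708 at Week-1 and 739, 768 and 1049 at End-stage. Each of these 9 values was below the lowest Week-2 dog. Week-2 exceeded Day-3 by log2 1.14 (SE 0.23), Week-1 by 0.81 and End-stage by 0.49, with limma adjusted p values of 0.281, 0.76 and 0.999.

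CCL2 had 95.0, 138 and 101 at Day-3, 109, 105 and 117 at Week-1 and 88.0, 183 and 169 at End-stage, again all below the Week-2 dogs, with a Week-2 excess of log2 0.84 (SE 0.23) over both Day-3 and Week-1. For CLGN the Week-2 dogs overlapped with Week-1 (149, 182 and 119) and with End-stage (146, 168 and 95.2). SLC22A3 did not separate Week-2 from Week-1 (log2 0.01, SE 0.13), and 1595083_at also stood at the same level (log2 -0.03, SE 0.12). These direct differences did not pass, with limma adjusted p values of 0.727 and 0.76 for CCL2 against Day-3 and Week-1, 0.997 for SLC22A3 against Week-1 and 0.235 for CLGN against Day-3.

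Dogs sharing a number deviated together between Week-2 and Day-3 and between Week-2 and End-stage, with correlations of 0.101 to 0.242. This was read from the same expression values and not from the labels, so a fit using the dog number is not independent of that reading. With the dog number as a block, DKK3 passed in both contrasts by the probe set 1584167_at, as the 1 probe set called in each. DKK3 encodes a secreted modulator of Wnt signalling. It was 2.69-fold higher at Week-2 than at Day-3 (log2 1.43, SE 0.13, limma adjusted p = 0.00149 with the block and 0.158 without) and 2.11-fold higher than at End-stage (log2 1.07, limma adjusted p = 0.0336 with the block and 0.999 without). The block was fitted over all 15 dogs, including the Day-0 and Week-1 dogs, whose numbers were not taken as pairs. With only the compared dogs it gave 1 call against Day-3 and 0 against End-stage.

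Beyond the threshold, the widest differences with dogs that did not overlap and an unadjusted p under 0.01 were taken as values, 135 such probe sets with 1 symbol being higher and 143 lower. CTH, the enzyme that makes cysteine from cystathionine, had 23.9, 3.43 and 15.6 at Day-0 and 173, 40.3 and 68.2 at Week-2 (log2 2.85, SE 0.63, limma adjusted p = 0.0959). The Week-2 dogs were higher but spread widely, and 2 of the 3 Day-0 signals lay below 22.8, the mean signal a probe set needed to be tested, so the size of the difference is uncertain. NEFH, the heavy neurofilament subunit of axons, had 31.2, 48.2 and 25.5 at Day-0 and 109, 333 and 170.3 at Week-2 (log2 2.44, SE 0.56, adjusted p = 0.0982). It was low at Day-3 and Week-1, with 28.6 to 66.8 over these 6 dogs, and again high in End-stage dogs 2 and 3 at 335 and 201.

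TRIB1, a pseudokinase that directs proteins to degradation, came closest to the threshold, with 291, 234 and 244 at Day-0 and 667, 818 and 1011 at Week-2 (log2 1.68, SE 0.30, limma adjusted p = 0.0561). DKK3 was higher by all 3 of its probe sets, at log2 1.83 (SE 0.34), 1.22 (SE 0.25) and 1.12 (SE 0.25), with dogs that did not overlap and adjusted p values of 0.0657, 0.0796 and 0.0959. LOC480601 stood at log2 1.64 (SE 0.52). EDEM2, which helps discard misfolded glycoproteins, stood at log2 1.51 (SE 0.49) by 1 of 6 probe sets, the other 5 standing between -0.15 and 0.18. The Day-0 signals of that 1 probe set, 18.4, 11.8 and 16.7, all lay below 22.8. Without the Week-2 dogs its mean lay just under that filter, so it was tested only through the group where it was high.

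Among the lower values, ANK1, the ankyrin 1 gene whose muscle form links the sarcoplasmic reticulum to the sarcomere, had 1861, 2237 and 2419 at Day-0 and 751, 759 and 835 at Week-2 (log2 -1.47, SE 0.33, limma adjusted p = 0.0959). The Week-2 dogs were within a narrow range, well below the Day-0 dogs. ITGB6, an integrin subunit of epithelia that activates TGF-beta, stood at log2 -1.58 (SE 0.35, adjusted p = 0.0959). FADS1, a fatty acid desaturase, had 920.2, 539 and 679 at Day-0 and 290.0, 227 and 253 at Week-2 (log2 -1.45, SE 0.42), while its other 3 probe sets stood at -0.80 without overlap and at -0.27 and -0.20 with overlap. The short-chain dehydrogenase DHRS11 had 1296, 1308 and 987 against 583, 405 and 691 (log2 -1.12, SE 0.23, adjusted p = 0.0814). KYAT1, an enzyme of kynurenine metabolism, was lower by both probe sets at log2 -1.04 and -0.94, LMO3, a transcriptional cofactor, stood at log2 -1.03 (SE 0.25), DAO at -1.32 (SE 0.39) and DNAJC17 at -1.27 (SE 0.35). For DNAJC17 all Week-2 signals, and for DAO 1 of 3, lay below 22.8.

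Several of these genes were named through 1 probe set that its companions did not share. SARS1, the cytosolic seryl-tRNA synthetase, stood at log2 -1.61 by 1 probe set, with 2 of 3 Week-2 signals below 22.8, and between -0.11 and 0.22 by the other 3. ACTA1, skeletal muscle alpha-actin, which the heart also expresses, had 878, 1139.5 and 805 at Day-0 and 345, 277 and 359.5 at Week-2 by 1 probe set (log2 -1.52, SE 0.36, limma adjusted p = 0.105), while its other 3 stood at 0.11, 0.07 and -0.18. Muscle phosphofructokinase PFKM stood at log2 -1.25 by a dim probe set, with all Week-2 signals below 22.8, and at -0.40 and -0.23 by bright ones. Triadin, TRDN, which anchors the calcium release channel, stood at -1.11 by a dim probe set and between -0.06 and 0.03 by its other 5.

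**Figure D2:**
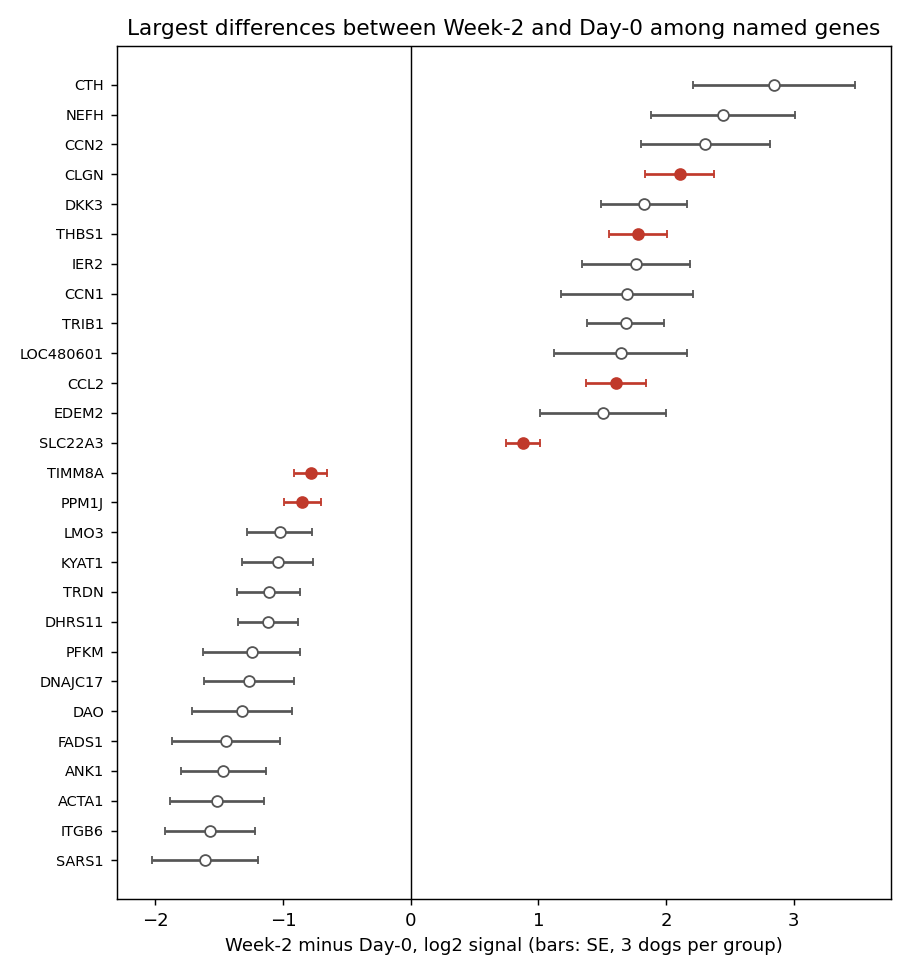
Week-2 minus Day-0 on the log2 scale, with its SE from limma (3 dogs per group), for the named genes past the threshold (filled red) and for the 12 highest and 12 lowest differences among probe sets with 1 symbol, unadjusted p under 0.01 and dogs that did not overlap (open where not past the threshold). CTH stood at 2.85 with an SE of 0.63 and 2 of 3 Day-0 signals below 22.8, whereas SLC22A3, TIMM8A and PPM1J passed with differences under 1 and SEs of 0.13 to 0.15.

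Most matrix genes lay higher after 2 weeks. Of 25 measured genes for fibrillar collagens, their processing enzymes and matricellular proteins, 1 (THBS1) rose and 0 fell, and 22 had an estimate above 0. The median difference was 0.56, beside -0.02 over all 5278 genes. The list's median by dog, relative to the Day-0 mean, was -0.0008, 0.27 and -0.28 at Day-0 and 0.83, 0.66 and 0.24 at Week-2. Day-0 dog 2 thus lay above Week-2 dog 3. In 10 of 25 (40%) all Week-2 dogs lay above all Day-0 dogs, beside 8.64% of all genes, and in 0 did they lie below, beside 10.5%. Over all genes 4 rose (0.0758%) and 2 fell (0.0379%). With the arrays under 43 the count above was again 10 of 25, beside 8.54%.

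CCN2, connective tissue growth factor, which promotes fibrosis, had 557, 524 and 660.4 at Day-0 and 1612, 2861 and 5042 at Week-2 (log2 2.31, SE 0.51, limma adjusted p = 0.0959). The Week-2 dogs were spread widely, yet all stood above the Day-0 dogs. CILP, a matrix protein of cartilage and of activated cardiac fibroblasts, had 76.6, 87.7 and 68.6 against 206, 269 and 159 (log2 1.42, SE 0.34, adjusted p = 0.104). LOXL2, which cross-links collagen, had 172, 197 and 118 against 296, 253 and 255 (log2 0.75, SE 0.17), and ASPN, a small leucine-rich proteoglycan, 119, 146 and 120.0 against 315, 262 and 186 (log2 0.96, SE 0.27). The collagen chaperone SERPINH1 stood at 0.38 (SE 0.14) and the collagen hydroxylase P4HA1 at 0.78 (SE 0.31), with dogs that did not overlap either.

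The collagens themselves were less separated. COL1A1 had 306, 588 and 188 at Day-0 and 1211, 682 and 406 at Week-2, so that the groups overlapped (log2 1.10, SE 0.53, limma adjusted p = 0.468). COL1A2 stood at 0.40 (SE 0.39) and COL3A1 at 0.20 (SE 0.49), with Day-0 dog 2 above Week-2 dogs 2 and 3 for both. The 6 measured of 10 fibroblast markers, which include these collagens, had a summed signal of 6281 to 9494 at Day-0 and 6699 to 9053 at Week-2. DCN, the decorin gene of resident fibroblasts, stood at -0.15 (SE 0.21), and the part of fibroblast number in the matrix values was not tested. Among protease inhibitors TIMP1 had 178, 170.3 and 191 against 264, 277 and 260.0 (log2 0.57, SE 0.21), while TIMP3 stood at -0.45 (SE 0.19), neither overlapping between groups. The other TIMP3 probe sets stood between -0.39 and -0.13, all with overlap. TGFBR2, the TGF-beta type 2 receptor, stood at 0.68 (SE 0.25) without overlap, and TGFB1 itself at 0.02 (SE 0.15). The other TGFBR2 probe set stood at 0.41 (SE 0.36) with overlap.

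Genes for protein folding in the endoplasmic reticulum had the largest share of members without overlap among the lists with at least 9 genes. Of 16 measured genes 1 rose (CLGN) and 0 fell. All Week-2 dogs lay above all Day-0 dogs in 10 of 16 (62.5%, beside 8.64% of all genes), and the median difference was 0.50. PDIA6, a protein disulfide isomerase, had 395, 318 and 317 at Day-0 and 474, 569 and 498 at Week-2 (log2 0.58, SE 0.13, limma adjusted p = 0.0959). XBP1, a transcription factor of the unfolded protein response, had 520.1, 460.2 and 509 against 692, 822 and 850.0 (log2 0.66, SE 0.16, adjusted p = 0.115). Their groups did not overlap, but neither passed the threshold.

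The other members without overlap were PDIA4, CALR, SDF2L1, DNAJC3, PDIA3, ASNS and SYVN1, with log2 values of 0.55, 0.70, 1.33, 0.45, 0.77, 0.88 and 0.16. For SDF2L1 2 of 3 and for ASNS 1 of 3 Day-0 signals lay below 22.8. Calreticulin, the product of CALR, and PDIA3 fold glycoproteins together, and ASNS makes asparagine under amino acid shortage. HSPA5, the master chaperone that senses unfolded protein, overlapped between the groups with 625, 382 and 599 against 644, 561 and 799.7 (log2 0.34, SE 0.26), as did HSP90B1 (0.44, SE 0.22). The lectin chaperone CANX (-0.05), the transcription factor ATF4 (0.09) and HERPUD1 (-0.09) also overlapped. In the arrays under 43 the count above was 9 of 16, and under quantile normalization it was also 9 of 16, beside 9.42% of all genes. Of 18 cytosolic heat shock genes measured 0 passed, with a median of 0.02, and 8 had an estimate below 0. All Week-2 dogs lay above in 3 of 18 (16.7%, beside 8.64% of all genes). Here HSF1 stood at 0.38 (SE 0.12) and DNAJB4 at 0.65 (SE 0.25), and HSP90AA1 had 3884, 3998 and 4250.3 against 4395, 5344 and 5524, all 3 without overlap. In the other direction HSPB3 stood at -0.33 (SE 0.25) with overlap, and its other probe sets at -0.44 and -0.52 without.

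Immediate early genes, which are transcribed within minutes of a stimulus without new protein synthesis, were high in Week-2 dogs 1 and 3 and less so in dog 2. Of 9 measured genes 0 passed and 9 had an estimate above 0. The median difference was 1.23, and in 4 of 9 (44.4%, beside 8.64%) all Week-2 dogs lay above all Day-0 dogs. With the arrays under 43 that count was 3 of 9 (33.3%, beside 8.54%). The median of the list above the Day-0 mean was 1.36 in Week-2 dog 1, 0.52 in dog 2 and 1.48 in dog 3. Without dog 2 the median difference was 1.71, and without dog 1 it was 0.80.

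FOS, a subunit of the AP-1 transcription factor, had 90.5, 9.5 and 343 at Day-0 and 2100.3, 282 and 2916 at Week-2. Week-2 dog 2 lay below Day-0 dog 3, and the Day-0 dogs were spread widely too, so the log2 difference of 4.17 had an SE of 1.32 (limma adjusted p = 0.227). IER2 had 382, 130.3 and 353 against 1391, 506 and 976 (log2 1.76, SE 0.42, adjusted p = 0.102), and JUNB, a partner of FOS, 198, 176 and 273 against 1216, 312 and 397 (log2 1.33, SE 0.36). The phosphatase DUSP1, which switches off MAP kinases, had 703, 834 and 1089.5 against 2089.5, 1237 and 2399 (log2 1.09, SE 0.34), and the matricellular gene CCN1 69.6, 99.1 and 202 against 222, 208 and 1020.4 (log2 1.69, SE 0.52). These 4 genes did not overlap between groups by the probe sets given, while the other CCN1 probe set did (log2 1.57, SE 0.54). The nuclear receptor NR4A1 had 816, 89.9 and 1257 at Week-2, where dog 2 was below every Day-0 dog, the lowest of which had 137.

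**Figure D3:**
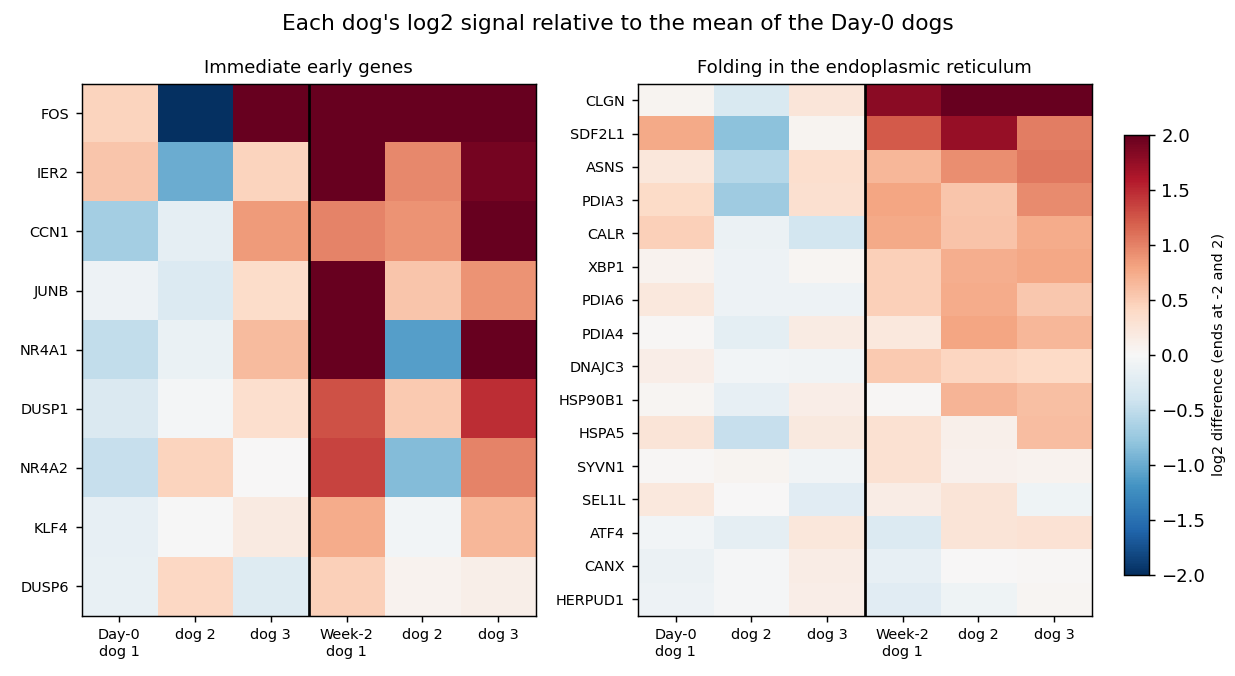
Log2 signal of each dog relative to the mean of the Day-0 dogs for the 9 immediate early genes and the 16 genes of folding in the endoplasmic reticulum, 1 row per gene in the order of the Week-2 minus Day-0 difference; colours end at -2 and 2. Week-2 dog 2 was the palest of the Week-2 dogs for the immediate early genes (median 0.52 against 1.36 and 1.48), whereas for the folding genes its median of 0.57 lay between those of dog 1 (0.39) and dog 3 (0.61).

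Nuclear genes of mitochondrial energy metabolism lay lower at Week-2. Of 50 measured genes of oxidative phosphorylation 0 passed the threshold, 49 had an estimate below 0, and the median difference was -0.24. In 17 of 50 (34%, beside 10.5% of all genes) all Week-2 dogs lay below all Day-0 dogs, and in 0 did they lie above. The list's median relative to the Day-0 mean was -0.19, 0.11 and 0.10 in the Day-0 dogs and -0.44, -0.19 and -0.18 in the Week-2 dogs, so that Day-0 dog 1 lay about level with Week-2 dogs 2 and 3. The cardiomyocyte markers moved likewise between dogs, with list medians of -0.37, 0.19 and 0.18 at Day-0 and -0.46, -0.07 and 0.13 at Week-2, and the part of muscle content in the mitochondrial values was not tested.

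The genes with the smallest p were subunits of complex I and complex III. NDUFS4, an accessory subunit of complex I, had 2675, 2730.2 and 2603 at Day-0 and 1643, 2086 and 2109 at Week-2 (log2 -0.47, SE 0.11, limma adjusted p = 0.102). NDUFAB1 stood at -0.51 (SE 0.14), NDUFV2 at -0.48 (SE 0.14), NDUFS3 at -0.35 (SE 0.11) and CYC1, the cytochrome c1 of complex III, at -0.40 (SE 0.12). In each of these the dogs did not overlap by the probe set given. The other probe set of NDUFS4 stood at -0.11 (SE 0.22) with overlap, and that of NDUFAB1 at -0.43 (SE 0.15) without. SDHD of complex II stood at -0.35 (SE 0.11) and SLC25A5, which exchanges ADP for ATP across the inner membrane, at -0.54 (SE 0.13, adjusted p = 0.0996).

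Mitochondrial transcripts include some of the brightest on the array, so the list was also set beside genes of the same signal range. Among genes with a mean log2 signal over the 15 dogs from 11 to 12, 25 of 25 oxidative phosphorylation genes had an estimate below 0, with a median of -0.33, while 138 genes outside the mitochondrial lists had a median of -0.02. All Week-2 dogs lay below in 13 of the 25 (52%) and in 9 of the 138 (6.52%). Above a log2 signal of 12 the medians were -0.24 over 18 such genes and -0.04 over 94 others, and all Week-2 dogs lay below in 3 of the 18 (16.7%) and in 0 of the 94. After quantile normalization the median over the 50 genes was -0.16 and 25 of 50 (50%) did not overlap, beside 10.8% of all genes.

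**Figure D4:**
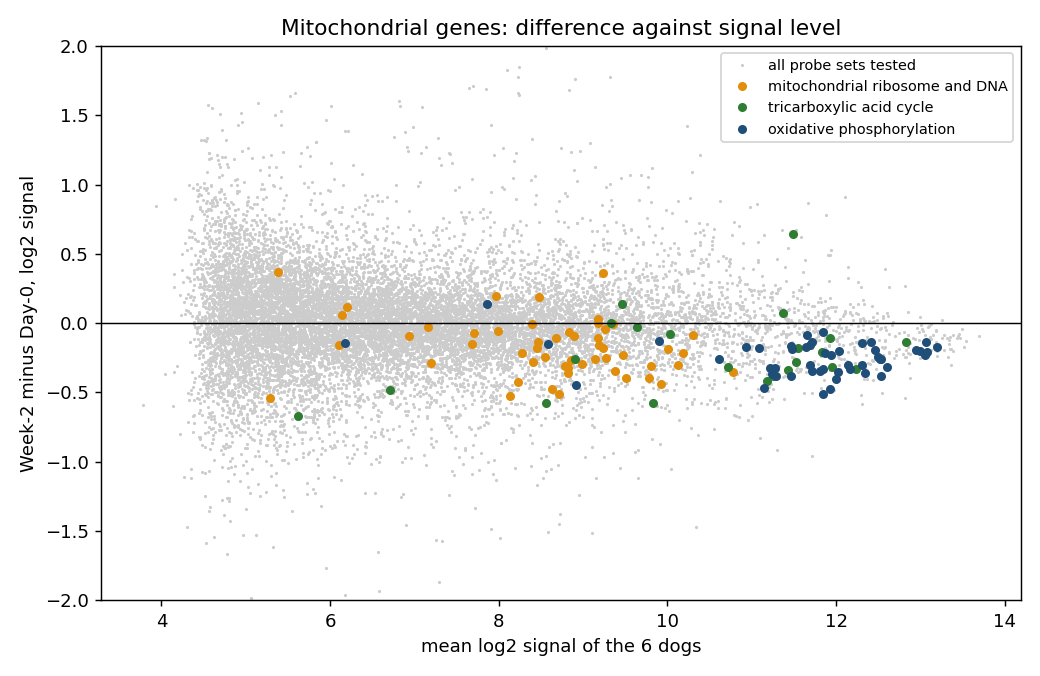
Week-2 minus Day-0 on the log2 scale against the mean log2 signal of the 6 dogs compared, for all probe sets tested (grey; those beyond 2 in either direction are not drawn) and for genes of 3 mitochondrial lists. Of the genes with a mean over all 15 dogs between 11 and 12, all 25 oxidative phosphorylation genes lay below 0 (median -0.33), while other genes of that range centred near 0 (median -0.02).

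The tricarboxylic acid cycle and pyruvate dehydrogenase list, which feeds the respiratory chain, had a median of -0.27 over 22 genes, with 0 past the threshold. In it 7 (31.8%, beside 10.5% of all genes) were entirely lower and 1 (4.55%, beside 8.64%) entirely higher. PDHB, a subunit of pyruvate dehydrogenase, had 2544, 2880.4 and 2639 at Day-0 and 2080.4, 1903 and 2044 at Week-2 (log2 -0.42, SE 0.10, limma adjusted p = 0.105). SUCLA2 of succinyl-CoA ligase stood at -0.57 (SE 0.19), and IDH3A and IDH3B of isocitrate dehydrogenase at -0.38 and -0.32. The other probe set of IDH3B stood at -0.11 (SE 0.12) with overlap, and the others of IDH3A between -0.50 and -0.44. PDK4, the kinase that shuts pyruvate dehydrogenase down, was the highest member at 0.64 (SE 0.51), with overlap between dogs. Fatty acid uptake and oxidation genes had a median of -0.23 over 28 genes, with 0 passing, 0 entirely higher and 8 (28.6%, beside 10.5%) entirely lower. Among them were ACSL1, which activates fatty acids (2740.5, 2951 and 3070.2 against 1484, 2280.0 and 2343, log2 -0.55, SE 0.16), the fatty acid transporter CD36 (-0.44, SE 0.17) and HADHA of the trifunctional protein (-0.41, SE 0.16).

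The machinery that builds mitochondria lay lower too. Of 26 genes for protein import and assembly 1 (TIMM8A) fell and 0 rose, and the median was -0.16. In this list 9 (34.6%, beside 10.5% of all genes) were entirely lower and 2 (7.69%, beside 8.64%) entirely higher. FMC1, an assembly factor of ATP synthase, had 588, 879 and 742 at Day-0 and 414, 403 and 483 at Week-2 (log2 -0.75, SE 0.17, limma adjusted p = 0.0959). TIMM8B, a relative of TIMM8A, stood at -0.68 (SE 0.19), and TOMM5 of the outer membrane pore at -0.50 (SE 0.13), both without overlap. Of 52 genes of the mitochondrial ribosome and mitochondrial DNA 0 passed, 44 had an estimate below 0 and the median was -0.18. Here 16 (30.8%, beside 10.5%) were entirely lower, led by MRPL46 at -0.48 (SE 0.13), and 1 (1.92%, beside 8.64%) was entirely higher. With the arrays under 43 the counts of entirely lower genes were 16 for oxidative phosphorylation, 7 for the tricarboxylic acid cycle, 9 for fatty acids, 7 for import and 12 for the ribosome, beside 9.64% of all genes.

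Glycolysis and glycogen genes were mixed, with a median of -0.11 over 22 genes, which was 0.00 in the arrays under 43, and 0 passing. ENO1, the enolase isoform that predominates outside adult muscle, had 1317, 1459 and 1610.2 at Day-0 and 2095, 2043 and 1838 at Week-2 (log2 0.45, SE 0.12, limma adjusted p = 0.151). The platelet phosphofructokinase PFKP stood at 1.71 (SE 0.66), while the muscle isoforms ENO3 and PYGM stood at -0.23 (SE 0.15) and -0.58 (SE 0.28). ENO1, PFKP and PYGM did not overlap between groups.

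**Figure D5:**
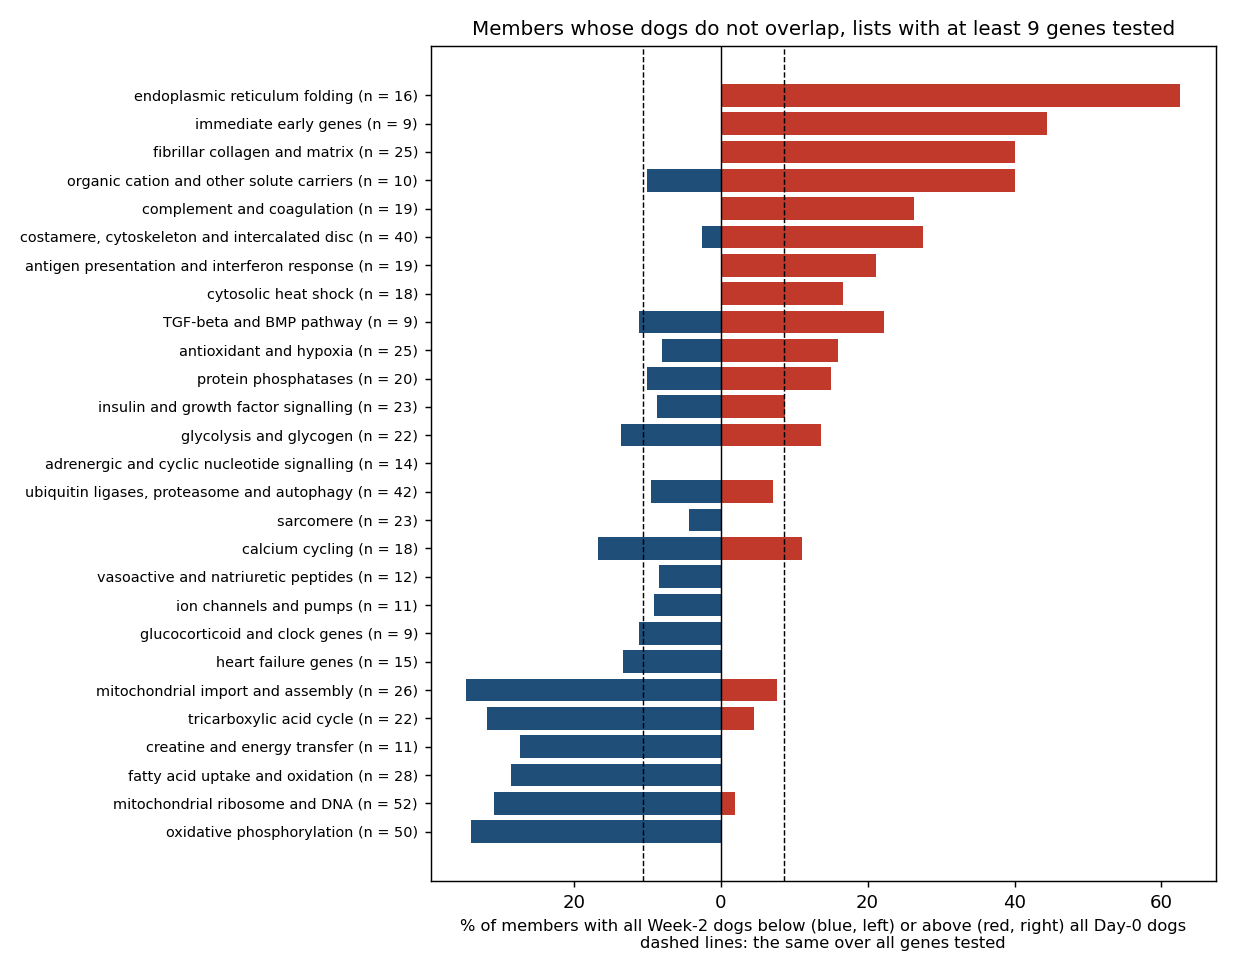
Share of each list's measured genes for which all 3 Week-2 dogs lay above (red, right) or below (blue, left) all 3 Day-0 dogs, for pathway lists with at least 9 genes tested; dashed lines mark the same shares over all 5278 genes, 8.64% and 10.5%. Folding in the endoplasmic reticulum reached 62.5% above, and mitochondrial import, oxidative phosphorylation and the tricarboxylic acid cycle 34.6%, 34% and 31.8% below.

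Contractile genes mostly had estimates below 0 with overlapping dogs. Of 23 measured sarcomere genes 0 passed, 21 had an estimate below 0 and 1 was entirely lower (4.35%, beside 10.5%). The median of -0.13 kept its sign in 24 of 25 settings, from -0.278 without Day-0 dog 1 to 0.02 without Week-2 dog 1. MYH7, the beta-myosin heavy chain, had 9654, 14308 and 14099 at Day-0 and 9094, 12082 and 13543 at Week-2 (log2 -0.13, SE 0.23), and TNNT2, cardiac troponin T, stood at -0.19 (SE 0.21). Cardiomyocyte markers had a median of -0.12 over 11 genes, 11 of them below 0. This median kept its sign in 23 of 25 settings. It ranged from -0.315 without Day-0 dog 1 to 0.03 without Week-2 dog 1, and was 0.02 after quantile normalization. Among 15 measured of 24 genes often reported in heart failure 0 passed and the median was -0.29. The gap junction gene GJA1 stood at -0.87 (SE 0.44), the coactivator PPARGC1A at -0.53 (SE 0.26), the channel subunit KCNIP2 at -0.42 (SE 0.56), ANKRD1 at -0.35 (SE 0.29), the actin gene ACTC1 at -0.29 (SE 0.22), the exchanger SLC8A1 at -0.33 (SE 0.41) and the glucose transporter SLC2A1 at 0.56 (SE 0.42), all with overlap between dogs. The potassium channel genes KCND3 (0.16, SE 0.36) and KCNJ2 (0.32, SE 0.39) overlapped as well.

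Calcium handling genes, with a median of 0.00 over 18, held differences in both directions, and 0 passed. In this list 2 (11.1%, beside 8.64% of all genes) were entirely higher and 3 (16.7%, beside 10.5%) entirely lower, not far from the shares over all genes. RYR2, the calcium release channel of the sarcoplasmic reticulum, had 2273, 2530.1 and 2998 at Day-0 and 1561, 1502 and 1824 at Week-2. The groups were apart, 1.59-fold lower at Week-2 (log2 -0.67, SE 0.14, limma adjusted p = 0.0796). The other 3 of its probe sets stood at -0.77, -1.01 and -0.38, the first 2 without overlap. S100A1, a calcium sensor that binds RYR2, had 1981, 2560.2 and 2311 against 1285, 1388 and 1625 (log2 -0.67, SE 0.15, adjusted p = 0.0959). In the other direction CALM3, a calmodulin gene, had 492, 544 and 500.1 against 757, 825 and 715 (log2 0.58, SE 0.14), and the calcineurin subunit PPP3R1 stood at 0.64 (SE 0.24). The calcium pump gene ATP2A2 overlapped by its brightest probe set, with 5962, 8932 and 8987 against 5785, 7081 and 8176 (log2 -0.17, SE 0.20). Of its other 8 probe sets, 2 were entirely lower, at -0.48 (SE 0.19) and -0.29 (SE 0.17), 1 was entirely higher at 0.17 (SE 0.23), and 5 overlapped.

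Cytoskeletal and adhesion genes lay higher in part. Of 40 measured genes of the costamere, cytoskeleton and intercalated disc 0 passed, 11 (27.5%, beside 8.64%) were entirely higher and 1 entirely lower, and the median was 0.12. Tubulins made up 4 of the 11. TUBB6 had 179, 195 and 202 at Day-0 and 429, 335 and 364 at Week-2 (log2 0.97, SE 0.22, limma adjusted p = 0.0959), and TUBB had 706, 668 and 615 against 1452, 1036 and 1179 (log2 0.87, SE 0.20). TUBA1C stood at 0.90 (SE 0.27) and TUBB2A at 0.48 (SE 0.15).

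ITGB5, an integrin beta subunit, had 1470.4, 1325 and 1400.5 at Day-0 and 2283, 2217 and 2026 at Week-2 (log2 0.64, SE 0.14, limma adjusted p = 0.0959). The nuclear lamina gene LMNA stood at 0.54 (SE 0.15) and the stretch-associated LIM protein gene FHL1 at 0.78 (SE 0.29), both without overlap. AKAP13, an anchoring protein of protein kinase A, had 548, 504 and 622 against 795, 920.3 and 1024 by its brightest probe set (log2 0.71, SE 0.14, adjusted p = 0.0792), while its other 3 overlapped. FHL2, another LIM protein of the sarcomere, stood in the other direction at -0.58 (SE 0.23), with overlap.

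Smooth muscle and pericyte markers had the lowest median among the 8 cell type lists with at least 3 genes tested. After quantile normalization the atrial cardiomyocyte list was lower, at -0.372 against -0.348. The 6 measured of 13 smooth muscle and pericyte markers had a median of -0.37 and a summed signal of 6455 to 8309.6 at Day-0 and 5907 to 6516 at Week-2, which overlap slightly. SMTN, smoothelin, had 2017, 1941 and 2135 against 1386, 1539 and 1715 (log2 -0.40, SE 0.13, limma adjusted p = 0.265), and 0 of 6 passed. TAGLN went the other way, with a mean signal of 1394 at Day-0 and 1480 at Week-2. Endothelial markers had a median of -0.19 over 6 of 13 and summed to 5280.2 to 6209.6 at Day-0 and 5538 to 6177 at Week-2. VWF, von Willebrand factor, was the exception, with 1176, 1262 and 1254 at Day-0 and 1866, 1924 and 1575 at Week-2 (log2 0.53, SE 0.14, adjusted p = 0.128), entirely higher. Among 7 chemokine and cytokine genes CCL2 was the 1 to rise and the median was 0.21, which was 0.10 in the arrays under 43.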

How the data were processed

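Per the submitters' processing notes, GCOS 1.4 and MAS5 were used. What the authors deposited is a linear signal intensity for each probe set, already scaled: with the lowest and highest 2% removed, the mean was 150.02 to 150.026 on every array. The log2 intensities of a dog's 3 arrays were averaged, and the dog was the replicate. Of 23913 probe sets, 77 controls and the dimmest 40% (below a signal of 22.8) were left out. limma 3.58.1 (R 4.3.3, eBayes with an intensity trend) was fitted with 1 mean for each of the 5 groups over the 15 dogs, with two-sided p values adjusted by Benjamini-Hochberg over the 14302 probe sets tested and a threshold of 0.05. Arrays have no sequencing depth, so precision depends on how many dogs there are. Symbols came from the array's older annotation, and positions from RefSeq on UU_Cfam_GSD_1.0, where 7283 probe sets with 1 symbol matched.

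Named genes were all probe sets past the threshold, the 12 highest and 12 lowest differences with 1 symbol, unadjusted p under 0.01 and no overlap between dogs, 24 heart failure genes, and, for each list, at most the 4 members of smallest p. Further list members were named after their values were seen. The 33 pathway and 15 marker lists, and the comparison itself, were chosen with earlier results of these data known. Lists are described by counts and medians, without a list test. "Entirely higher" or "entirely lower" means that all Week-2 dogs lay outside the Day-0 range on that side. Promoter motifs were not analysed here.

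Same-numbered dogs of different groups were checked for pairing by correlating their deviations from the group means. All 3 pairs exceeded 0.1 for Week-2 with Day-3 (0.173, 0.166 and 0.101) and with End-stage (0.23, 0.242 and 0.102). The numbers were taken to pair these dogs, from the data and not from the labels. Same-numbered Week-1 dogs gave 0.161, 0.12 and 0.0521 and Day-0 dogs 0.0446, 0.029 and 0.0401, so these numbers were not taken as pairs. The block fit spans all 15 dogs, the Day-0 and Week-1 dogs included. Alternatives were the scaling, pseudocount, filter, variance model, dogs, isolations and arrays used; the restriction to arrays with a median under 43, the array median as a covariate, list counts after quantile normalization and the background by signal level were added after the data were seen.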

Additional observations from a re-analysis of the deposited data

How the results depend on the processing

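The count of 12 probe sets past the threshold between Week-2 and Day-0 became 24 with quantile normalization, 4 with median centring, 2 without the intensity trend, 40 with only the 6 compared dogs, 483 with all 45 arrays and the dog as a random block, and 6 and 19 without isolations 1 and 2. It was 6 with only the arrays under a median of 43 and 452 with all 45 arrays and the array median as a covariate, both chosen after seeing the data. Leaving out 1 dog gave 0 to 20. Numbers shared with Day-0 dogs were not taken to pair them, as the correlations (0.0446, 0.029 and 0.0401) stayed under 0.1. Those of differently numbered dogs lay lower still, from -0.056 to 0.014, and whether the number carries a structure shared with Day-0 was not tested. With the dog number as a replicate block the count was 88, or 25 with only the compared dogs. Against Day-3 the count of 0 became 46 with all 45 arrays and 1 with either form of the block. Against Week-1 it became 30 with all 45 arrays and 1 with only the compared dogs. Against End-stage it became 3 with all 45 arrays and 1 with the block. Leaving out 1 dog gave 0 to 1 in each of these 3 contrasts, the 1 arising without Week-2 dog 1. The block changed no other count of these contrasts. The causes were not tested. The 6 named genes past the threshold kept their direction in all 25 settings, many of which could not have changed it. Of 41 list medians 17 changed sign in at least 1 setting: ion channels and vasoactive peptides (each kept in 16 of 25), phosphatases and cell cycle (19), proteases, TGF-beta, heat shock, calcium and T and NK cells (22), ubiquitin, antioxidant, glucocorticoid and cardiomyocyte (23), and glycolysis, sarcomere, interferon and adipocyte (24). Having 3 dogs a group limits the precision, and differences of dim probe sets with signals below 22.8 in 1 group have an uncertain size.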

Other observations

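Other groups of genes measured at Week-2 gave the following values against Day-0. Of 10 solute carrier genes SLC22A3 rose, and 4 (40%, beside 8.64% of all genes) lay entirely higher, with a median of 0.39. SLC38A2, a neutral amino acid transporter, had 584, 419 and 361 at Day-0 and 610.1, 683 and 1239.7 at Week-2 (log2 0.85, SE 0.25), and SLC6A6, the taurine transporter, stood at 0.98 (SE 0.52). SLC25A12, the aspartate and glutamate carrier of mitochondria, stood at -0.46 (SE 0.17) and was entirely lower. The 19 measured genes of complement and coagulation showed a median of 0.19, with 5 (26.3%) entirely higher, among them the complement inhibitor CFI at 0.76 (SE 0.25) and clusterin, CLU, at 0.57 (SE 0.25). In the arrays under 43 this count was 3 of 19. The interferon-induced gene ISG15 had 49.3, 53.8 and 55.1 against 86.3, 90.2 and 107 (log2 0.84, SE 0.24, limma adjusted p = 0.175), and MX1 and MX2 stood at 0.50 and 0.29, all entirely higher, while B2M stood at -0.19. Of the 19 genes of that list 4 (21.1%) lay entirely higher and 8 had an estimate below 0, with a median of 0.10, and in the arrays under 43 the count was 2 of 19 (10.5%, beside 8.54% of all genes). The survival gene MCL1 had 382, 349 and 409 against 570.0, 647 and 661 (log2 0.72, SE 0.18, adjusted p = 0.115).

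Antioxidant genes differed in direction. The extracellular GPX3 had 1286, 1621 and 1636 at Day-0 and 3262, 2763 and 2153 at Week-2 (log2 0.84, SE 0.22, limma adjusted p = 0.13), and the metallothionein MT2A stood at 1.17 (SE 0.46), both entirely higher, though the other 2 probe sets of MT2A stood at -0.22 and 0.05 with overlap. Catalase, CAT, stood at -0.55 (SE 0.20), with overlap, and PRDX2 at -0.28 (SE 0.12), entirely lower. Of 25 genes in this list 0 passed and the median was -0.06. Insulin and growth factor genes were also mixed, with VEGFA at -0.48 (SE 0.20, entirely lower) and EIF4EBP1 at 0.50 (SE 0.17, entirely higher). In the list of vasoactive and natriuretic peptides CORIN, the protease that activates natriuretic peptides, stood at -0.62 (SE 0.25, entirely lower).

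By its brightest probe set MYH7 was lowest in the dog numbered 1 in each of the 5 groups. These dogs had 9654 at Day-0, 9394 at Day-3, 9133 at Week-1, 9094 at Week-2 and 8940.1 at End-stage, where the other dogs of the groups had 11221 to 14308. Another probe set of the gene, 1604094_at, was lowest in dog 2 at Day-0 and at Week-2, with 5055 and 4076. The labels give the dog number no meaning.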
